A study of Mus musculus with 9 samples.

Results

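The 10 genes described here serve glucose uptake, glycolysis and its control, or the use of its product pyruvate, and are called glycolysis genes below. They were read in whole right lung of mice kept for 4 weeks at low pressure or at that of Denver. They are Slc2a1, Hk1, Hk2, Pfkp, Pfkl, Pfkfb3, Pgk1, Tpi1, Ldha and Pdk1, and were found as every probe set whose only annotated gene symbol was one of these. That gave 25 of 45037 probe sets that are not controls, of which 23 were bright enough to be tested, and every gene kept at least 1. Hypoxic mice of the strains BL6 (C57/BL6), FVB/N and SV129 had been exposed to hypobaric hypoxia at 50 kPa (2 arrays per strain), and normoxic mice of the same strains had been kept at the altitude of Denver, 85 kPa (1 array per strain). The strains carry no stated transgene or deletion, the labels give neither age nor sex, and they do not say whether an array holds 1 animal or a pool. P-values therefore measure only the spread between these 9 arrays, which may be technical, and their number limits the precision.

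Glycolysis splits glucose into pyruvate and yields ATP without oxygen. When oxygen falls, the hypoxia-inducible factors (HIFs) are stabilised. They acutely raise the transcription of glucose transporters, most glycolytic enzymes, lactate dehydrogenase A and pyruvate dehydrogenase kinase 1. The last of these inhibits pyruvate dehydrogenase, and so the use of pyruvate in the mitochondria. HIFs bind a short core motif that is often close to the transcription start. In the lung, sustained hypoxia also narrows and remodels the small pulmonary arteries, and a shift toward glycolysis has been described in their walls.

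All 10 genes had at least 1 promoter window in RefSeq (GRCm38.p6), 14 windows in all. The 250 bases before the start were searched on both strands for the letters ACGTG and GCGTG, which differ in their first base. A CACGTG palindrome holds ACGTG on either strand, so it is counted once per strand, and it is also the E-box that other factors bind. At least 1 of the motifs was in 11 of the 14 windows (78.6%) and in 9 of the 10 genes, against 38.6% of 32851 windows over all genes (16.6% for ACGTG and 28.2% for GCGTG). Tpi1 had neither in its window, which says only that these letters are not there. Ldha had 5 matches in 1 window, 4 of which are the strands of a pair of CACGTG palindromes. Hk1, Pfkfb3, Ldha and Pdk1 have a pair of windows each, and only 1 of those of Hk1 and 1 of those of Pdk1 holds a motif. These 6 stretches are shown because their genes include those that acute hypoxia is best known to raise and those with a probe set past the threshold here. The capitals mark the motif, and each stretch is written 5′ to 3′ on the strand of its gene.
Slc2a1, chr4:119108689-119108733, plus strand, motif 36 bases before the start: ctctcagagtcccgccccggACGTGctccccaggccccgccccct
Hk1, chr10:62340593-62340637, minus strand, motif 196 bases before the start: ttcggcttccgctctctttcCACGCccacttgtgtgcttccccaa
Hk2, chr6:82774482-82774526, minus strand, motif 52 bases before the start: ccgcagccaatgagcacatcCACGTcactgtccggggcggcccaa
Pgk1, chrX:106186930-106186974, plus strand, motif 150 bases before the start: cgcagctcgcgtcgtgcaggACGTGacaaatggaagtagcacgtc
Ldha, chr7:46845640-46845684, plus strand, motif 144 bases before the start: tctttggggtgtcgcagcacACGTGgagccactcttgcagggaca
Pdk1, chr2:71873126-71873170, plus strand, motif 78 bases before the start: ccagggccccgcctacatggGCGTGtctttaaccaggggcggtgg
Stretches with CACGT or CACGC in capitals hold the motif on the other strand. The Ldha motif shown is part of a CACGTG palindrome. The match of that window outside a palindrome, 34 bases before the start, is not shown.

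Levels are given as quantile-normalized log2 signals. Changes are log2 differences, hypoxic minus normoxic, from a model with strain as a term over all 9 arrays (limma), each with its SE. The adjusted p is limma's with Benjamini-Hochberg adjustment over all 27022 probe sets tested, and the threshold is 0.05. A gene is represented by its brightest probe set unless another is named, and levels of different probe sets are not compared. On this array type a name ending in _a_at marks probes shared by transcripts of 1 gene, and one ending in _x_at marks probes that can also bind related sequences.

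The arrays held lung, with the mean level of 10 lung markers such as Sftpc and Ager between 13.36 and 14.02. Hypoxic BL6 array 2 and the normoxic FVB/N array also carried kidney transcripts. The mean of 19 measured kidney markers was 11.32 and 12.37 on these, against 5.75 to 6.23 on the other 7 arrays. The normoxic FVB/N array carried fast skeletal muscle transcripts besides (mean of 10 markers 11.62), against 5.94 to 6.31 on the other 8 arrays, hypoxic BL6 array 2 included. Neutrophil markers averaged 7.64 to 9.98 on hypoxic and 9.39 to 10.75 on normoxic arrays. Smooth muscle markers averaged 11.47 to 12.02 on hypoxic and 10.66 to 11.72 on normoxic arrays. With strains pooled both lists overlapped between the groups, as did those that follow. Within strains, the neutrophil and white fat means were lower on every hypoxic array than on the normoxic array of its strain. For neutrophils these were 9.10 and 9.10 against 9.54 in BL6, 9.20 and 9.98 against 10.75 in FVB/N, and 7.64 and 8.25 against 9.39 in SV129. The smooth muscle, macrophage, heart and brown fat means were not all on the same side. Macrophage markers (8.61 to 10.65 hypoxic, 9.22 to 10.61 normoxic), heart markers (8.75 to 10.41 hypoxic, 9.48 to 10.92 normoxic), white fat markers (5.06 to 6.88 hypoxic, 5.66 to 8.30 normoxic) and brown fat markers (6.15 to 6.63 hypoxic, 6.47 to 6.86 normoxic) overlapped between the groups, and the part of these cells in the results was not tested. The marker lists were chosen with earlier results of these arrays known. The ratio of 3′ to 5′ signal of the Gapdh control ran from 0.831 to 1.19 on hypoxic and from 0.808 to 0.945 on normoxic arrays. That of the beta-actin control ran from 1.16 to 1.55 and from 1.18 to 1.32. Hypoxic SV129 array 5 had the highest ratio on both controls and the lowest lung marker mean (13.36), and the part of this in the results was not tested. Because of the kidney transcripts the changes with hypoxia below are also given on the 7 arrays that remain when both are left out. FVB/N then has no normoxic array, and the change rests on BL6 and SV129.

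After 4 weeks of hypoxia few probe sets of the glycolysis genes passed the threshold, and those that did went in opposite directions. Of the 23 probe sets tested 1 rose, for hexokinase 1, 1 fell, for Pdk1, and 21 did not pass, where 3.76% of all probe sets passed (1.94% higher and 1.82% lower). The 16 probe sets with a change below 0 and the 7 above 0 had a median of −0.15, against 0.04 over all probe sets tested. Read through the brightest probe sets, 0 of the 10 genes passed in limma, where 2.75% of all genes did, 8 lay below 0 and 2 above, and the median was −0.22, against 0.03 over 12895 genes. At an unadjusted p under 0.05 there were 10 of the 23 probe sets and 3 of the 10 genes, against 22.2% of all probe sets and 19.9% of all genes. On the 7 arrays 0 of the 23 passed in limma (5 at an unadjusted p under 0.05, against 15.8% of all probe sets), where 0.844% of all probe sets did, and the median was −0.11. In bulk lung, fewer cells of a type and less RNA per cell cannot be told apart.

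**Figure D1:**
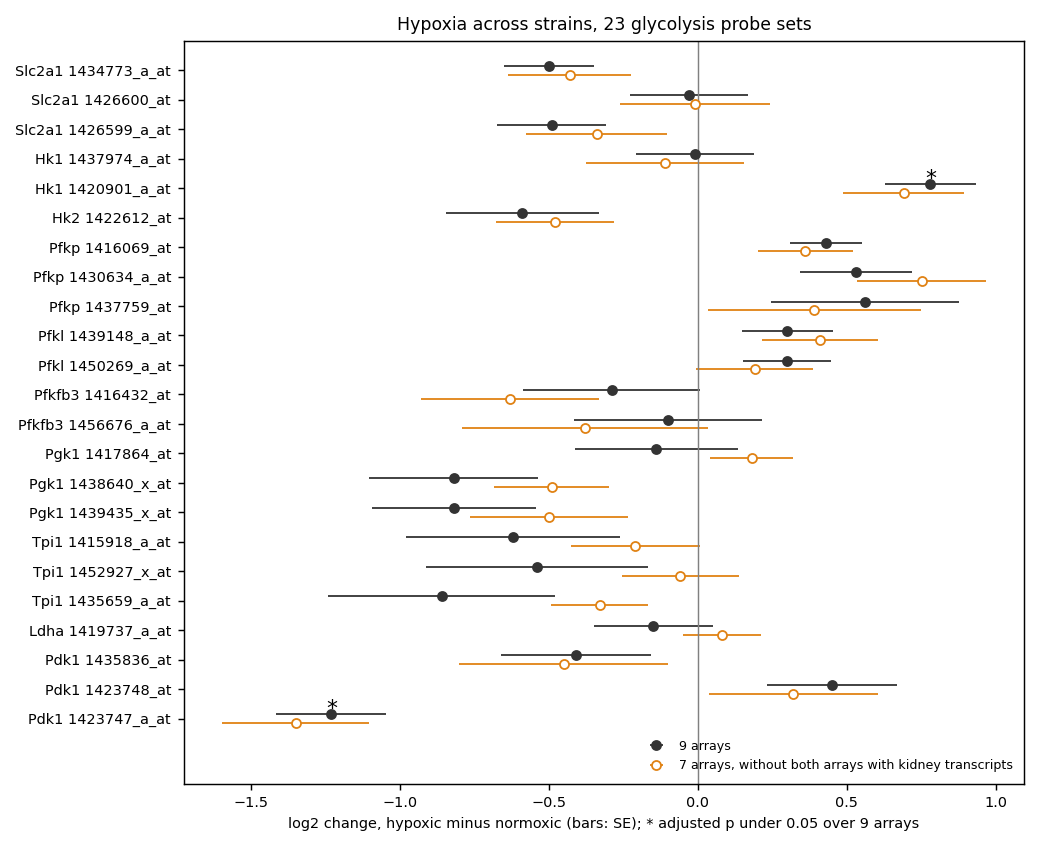
Log2 change, hypoxic minus normoxic, of the 23 tested glycolysis probe sets, with bars for the SE. Filled points are from all 9 arrays and open points from 7 arrays without those with kidney transcripts. Hk1 1420901_a_at (0.78) and Pdk1 1423747_a_at (−1.23) carry the asterisk for an adjusted p under 0.05, and the Pgk1 and Tpi1 points lie nearer to 0, or above it, on 7 arrays.

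All 6 hypoxic arrays lay above the normoxic array of their strain on 3 of the 23 probe sets, against 14.5% of all probe sets tested, and below it on 7, against 8.77%. The 7 belong to Slc2a1, Hk2, Pgk1 and Pdk1. Hypoxic and normoxic arrays did not overlap at all, strains pooled, on 4 of the 23 (2 of Slc2a1 and 1 each of Hk1 and Pfkp), against 10.7% of all probe sets.

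Slc2a1 encodes Glut1, the glucose transporter of most cells. Its brightest probe set stood at 9.97 and 9.95 on hypoxic BL6 arrays against 10.43 on the normoxic one, at 9.48 and 9.96 on hypoxic FVB/N arrays against 10.34, and at 9.73 and 9.97 on hypoxic SV129 arrays against 10.24. Every hypoxic array was below every normoxic one, with a change of −0.50 ± 0.15 that did not pass (adjusted p = 0.0995). On the 7 arrays it was −0.43 ± 0.206 (adjusted p = 0.358). A further probe set, 1426599_a_at, had 8.08 to 8.63 on hypoxic arrays (median 8.47) and 8.76 to 9.09 on normoxic arrays, again without overlap, and a change of −0.49 ± 0.183 (adjusted p = 0.157), and −0.34 ± 0.237 on 7 arrays. The third, 1426600_at, overlapped between the groups and had a change of −0.03 ± 0.199 (adjusted p = 0.944), and −0.01 on 7 arrays. Both dimmer probe sets were made from the same accession, and the difference between them was not tested.

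Hexokinases trap glucose in the cell by phosphorylating it. Hk1, the form found in most tissues and in red cells, rose on its probe set 1420901_a_at. That probe set read 9.95 and 9.77 on hypoxic BL6 arrays against 8.90 on the normoxic one, 10 and 10.05 on hypoxic FVB/N arrays against 9.19, and 9.76 and 9.35 on hypoxic SV129 arrays against 9.0. All hypoxic arrays were above all normoxic arrays, with means of 9.81 ± 0.257 on hypoxic (SD, n = 6) and 9.03 ± 0.15 on normoxic arrays (SD, n = 3). The rise was 1.72-fold (log2 change 0.78 ± 0.154, adjusted p = 0.0322 in limma), and 0.69 ± 0.204 on the 7 arrays, where it did not pass (adjusted p = 0.163). The brighter probe set of Hk1, 1437974_a_at, overlapped between the groups. It had 9.91 to 10.83 on hypoxic arrays (median 10.54) and 10.39 to 10.54 on normoxic arrays, a change of −0.01 ± 0.197 (adjusted p = 0.975), and −0.11 ± 0.264 on 7 arrays. Hk1 has a pair of RefSeq start sites, and the sources used here do not say which transcripts each probe set reads. The mean of the 5 measured erythroid markers was 8.46 to 9.28 on hypoxic and 9.0 to 9.61 on normoxic arrays. It was lower on every hypoxic array than on the normoxic array of its strain, and its part in the Hk1 values was not tested.

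Hk2, the inducible hexokinase of muscle and proliferating cells, has 1 probe set. It stood at 8.33 and 9.33 on hypoxic BL6 arrays against 10.03 on the normoxic one, at 9.20 and 9.17 on hypoxic FVB/N arrays against 9.44, and at 9.24 and 9.51 on hypoxic SV129 arrays against 9.68. Each hypoxic array was below the normoxic array of its strain, and the lowest was BL6 array 2, which carried kidney transcripts. The normoxic FVB/N array, with the higher kidney marker mean (12.37), had 9.44. Heart markers were also lowest on hypoxic BL6 array 2 (mean 8.75), and they were highest on the normoxic BL6 array (10.92), where Hk2 was highest. The part of kidney or heart RNA in the Hk2 values was not tested. The change was −0.59 ± 0.257 (adjusted p = 0.218), and −0.48 ± 0.198 on the 7 arrays (adjusted p = 0.289).

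The committed step of glycolysis is made by phosphofructokinase. Pfkp, its platelet-type subunit, had 10.51 to 10.80 on hypoxic arrays (median 10.69) and 10.04 to 10.37 on normoxic arrays. The groups did not overlap, and the change of 0.43 ± 0.12 did not pass (adjusted p = 0.0806). Its other probe sets, 1430634_a_at and 1437759_at, had changes of 0.53 ± 0.189 and 0.56 ± 0.316 (adjusted p = 0.147 and 0.333). All 3 thus had changes above 0, and did so on 7 arrays too, at 0.36, 0.75 and 0.39. Pfkl, the liver-type subunit, had 10.38 to 10.87 on hypoxic arrays (median 10.66) and 10.24 to 10.46 on normoxic arrays, a change of 0.30 ± 0.152 (adjusted p = 0.277). Its second tested probe set, 1450269_a_at, had the same change, 0.30 ± 0.148 (adjusted p = 0.272). On the 7 arrays these 2 had changes of 0.41 and 0.19. The third, 1453541_at, was too dim to be tested.

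Pfkfb3 makes fructose 2,6-bisphosphate, the activator of phosphofructokinase. It read 9.57 and 9.78 on hypoxic BL6 arrays against 10.59 on the normoxic one, 9.97 and 10.06 on hypoxic FVB/N arrays against 9.46, and 10.58 and 9.51 on hypoxic SV129 arrays against 10.54. Both hypoxic BL6 arrays lay below and both hypoxic FVB/N arrays above their normoxic array, while the SV129 pair differed by more than 1 log2 unit. The change over strains was −0.29 ± 0.296 (adjusted p = 0.612), and the test that strains differ in it gave an adjusted p of 0.492. On the 7 arrays the change was −0.63 ± 0.299 (adjusted p = 0.357). Its other probe set, 1456676_a_at, had −0.10 ± 0.315 (adjusted p = 0.885), and −0.38 ± 0.412 on 7 arrays.

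**Figure D2:**
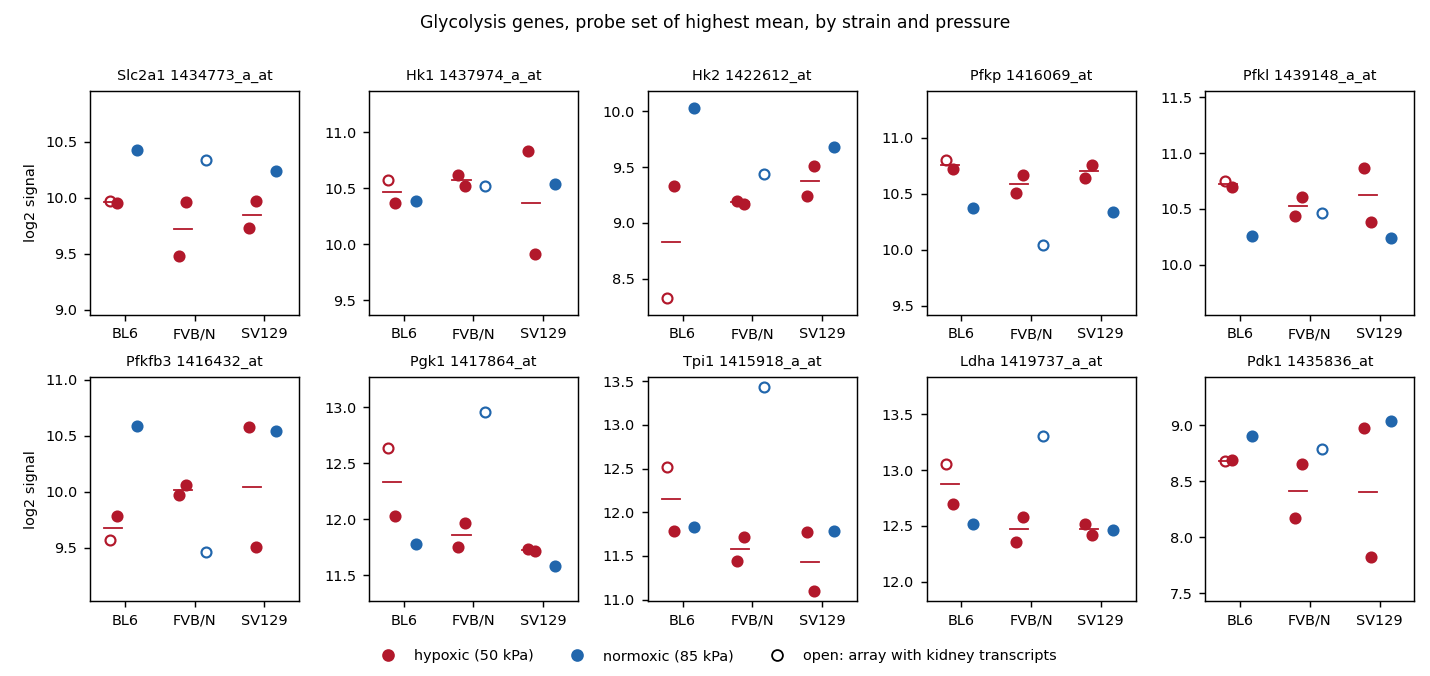
Log2 signal of the brightest probe set of each of the 10 glycolysis genes, by strain, with hypoxic arrays (50 kPa) left of the normoxic array (85 kPa) and a line for the mean of a hypoxic pair. Open points are the arrays with kidney transcripts. Slc2a1, Hk2 and Pdk1 are lower on every hypoxic array than on the normoxic array of their strain, Pfkp is higher, and Pgk1, Tpi1 and Ldha are highest on the open points.

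The enzymes of the later steps gave their highest signals on the arrays with transcripts of other tissues. Triose phosphate isomerase, Tpi1, interconverts the 3-carbon sugars. It read 12.52 and 11.79 on hypoxic BL6 arrays against 11.83 on the normoxic one, 11.44 and 11.72 on hypoxic FVB/N arrays against 13.43, and 11.77 and 11.10 on hypoxic SV129 arrays against 11.78. The normoxic FVB/N array was the highest and hypoxic BL6 array 2 the second highest, and the other 7 ran from 11.10 to 11.83. The change was −0.62 ± 0.359 (adjusted p = 0.349), and −0.21 ± 0.216 on the 7 arrays (adjusted p = 0.695). Its other probe sets, 1452927_x_at and 1435659_a_at, had −0.54 ± 0.372 and −0.86 ± 0.382 on 9 arrays, and −0.06 and −0.33 on 7.

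Phosphoglycerate kinase 1, Pgk1, makes the first ATP of the pathway. It read 12.64 and 12.03 on hypoxic BL6 arrays against 11.78 on the normoxic one, 11.75 and 11.97 on hypoxic FVB/N arrays against 12.96, and 11.73 and 11.72 on hypoxic SV129 arrays against 11.58. In BL6 and SV129 the hypoxic arrays were above the normoxic one, and in FVB/N below it. The change was −0.14 ± 0.274 on 9 arrays (adjusted p = 0.805), and turned to 0.18 ± 0.138 on the 7 arrays (adjusted p = 0.568). Its other probe sets, both ending in _x_at, had changes below 0 on those 7 arrays too. 1438640_x_at had −0.82 ± 0.284 on 9 and −0.49 ± 0.193 on 7 arrays, and 1439435_x_at −0.82 ± 0.275 and −0.50 ± 0.265, and each had all 6 hypoxic arrays below the normoxic array of their strain. Neither passed (adjusted p = 0.136 and 0.126 on 9 arrays).

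Ldha turns pyruvate into lactate and regenerates the NAD that glycolysis needs. It read 13.05 and 12.70 on hypoxic BL6 arrays against 12.52 on the normoxic one, 12.36 and 12.58 on hypoxic FVB/N arrays against 13.30, and 12.52 and 12.42 on hypoxic SV129 arrays against 12.46. The normoxic FVB/N array was again the highest and hypoxic BL6 array 2 the next. The change was −0.15 ± 0.2 (adjusted p = 0.688), and 0.08 ± 0.13 on 7 arrays (adjusted p = 0.808).

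Of the 23 probe sets 8 were highest on the normoxic FVB/N array, where 15.5% of all probe sets were, and these were all 7 of Pgk1, Tpi1 and Ldha and 1 of Slc2a1. Pfkp, Pfkl, Pfkfb3 and Pdk1 each had a probe set that was lowest there, 5 in all, where 25.3% of all probe sets were. The control probe sets for Gapdh, the next enzyme after Tpi1, had the same order on the deposited scale. The 3′ one gave signals of 13682 (hypoxic BL6 array 2) and 16685 (normoxic FVB/N), where the highest of the others was 10971 and the lowest 7149. The part of kidney and muscle RNA in these values was not tested.

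**Figure D3:**
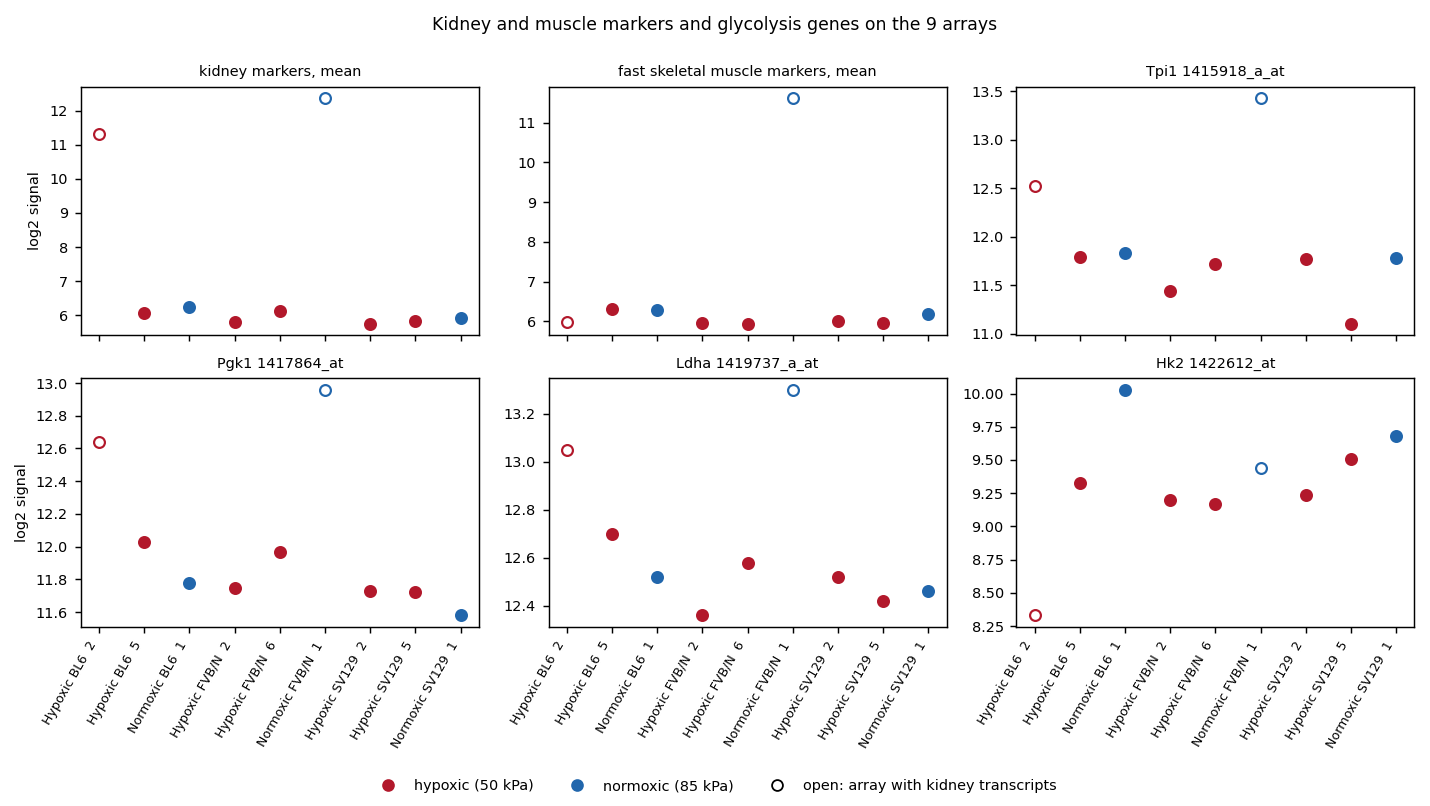
Log2 signal on each of the 9 arrays, hypoxic before normoxic within a strain, of the kidney and fast skeletal muscle marker means and of Tpi1, Pgk1, Ldha and Hk2. Open points are the arrays with kidney transcripts. Kidney markers are high on both open points and muscle markers on the normoxic FVB/N array, where Tpi1 (13.43), Pgk1 (12.96) and Ldha (13.30) are highest, while Hk2 is lowest on hypoxic BL6 array 2 (8.33).

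Pdk1, pyruvate dehydrogenase kinase 1, inhibits pyruvate dehydrogenase in the mitochondria, and its probe sets had changes of both signs. On 1423747_a_at it read 8.09 and 7.92 on hypoxic BL6 arrays against 9.73 on the normoxic one, 6.45 and 6.49 on hypoxic FVB/N arrays against 7.44, and 8.43 and 8.38 on hypoxic SV129 arrays against 9.40. Each pair of hypoxic arrays was close together and well below the normoxic array of its strain. It fell 2.35-fold (log2 change −1.23 ± 0.185, adjusted p = 0.0166 in limma). On the 7 arrays the change was −1.35 ± 0.247 and just missed the threshold (adjusted p = 0.0548).

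A second probe set of Pdk1, 1423748_at, made from the same accession, had a change above 0. It read 9.11 and 9.13 on hypoxic BL6 arrays against 9.06 on the normoxic one, 7.44 and 6.79 on hypoxic FVB/N arrays against 6.33, and 9.03 and 9.58 on hypoxic SV129 arrays against 8.81. All 6 hypoxic arrays were above the normoxic array of their strain, with a change of 0.45 ± 0.219 that did not pass (adjusted p = 0.264), and 0.32 ± 0.283 on 7 arrays (adjusted p = 0.639). The brightest probe set, 1435836_at, had 7.82 to 8.98 on hypoxic arrays (median 8.66) and 8.79 to 9.04 on normoxic arrays. All 6 hypoxic arrays were below the normoxic array of their strain, with differences from −1.21 to −0.05. The change was −0.41 ± 0.252 (adjusted p = 0.377), and −0.45 ± 0.351 on 7 arrays (adjusted p = 0.585). The fourth, 1434974_at, was too dim to be tested. The difference between the probe sets was not tested, and a fall of Pdk1 as a whole is not shown.

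**Figure D4:**
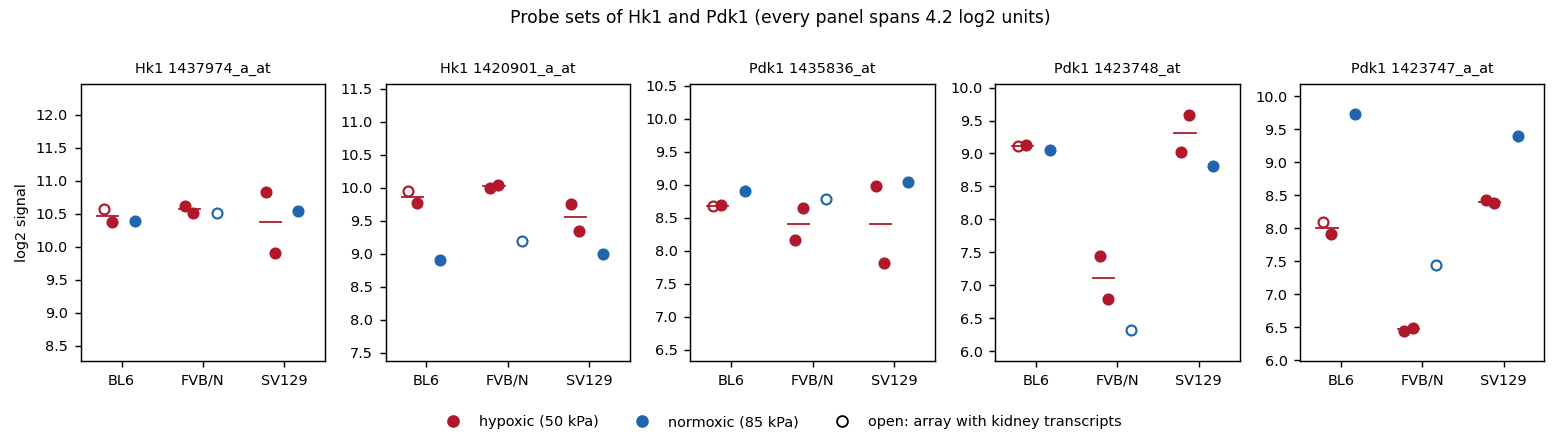
Log2 signal of the 2 probe sets of Hk1 and the 3 tested probe sets of Pdk1, by strain, with hypoxic arrays left of the normoxic array; every panel spans the same number of log2 units. Hk1 1420901_a_at and Pdk1 1423748_at are higher on every hypoxic array than on the normoxic array of its strain, and Pdk1 1423747_a_at and 1435836_at are lower. FVB/N lies about 2 log2 units below the other strains on Pdk1 1423748_at and 1423747_a_at but not on 1435836_at.

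Both calls depended on single arrays. Without hypoxic BL6 array 5, the normoxic BL6 array or the normoxic SV129 array neither passed, with adjusted p of 0.0987, 0.151 and 0.107 for Hk1 and 0.0634, 0.0943 and 0.0885 for Pdk1. Without hypoxic BL6 array 2, hypoxic FVB/N array 2, hypoxic FVB/N array 6 or the normoxic FVB/N array Pdk1 alone passed (adjusted p for Hk1 of 0.074, 0.0724, 0.0788 and 0.06). The sizes stayed between 0.69 and 0.91 for Hk1 and between −1.63 and −0.99 for Pdk1 in every setting tried.

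The next question was whether the strains responded differently. None of the 23 probe sets passed the test for a hypoxic minus normoxic difference that varies between the 3 strains, with 0 of 27022 probe sets called by limma (0% of all). At an unadjusted p under 0.05 there were 6 of the 23, against 12.3% of all probe sets, and these 6 were 3 of Tpi1, 2 of Pgk1 and that of Ldha. On them the FVB/N difference, which rests on the normoxic array with kidney and muscle transcripts, was the lowest. For Tpi1 it was −1.85 in FVB/N, 0.33 in BL6 and −0.34 in SV129 (adjusted p = 0.244). For Pgk1 it was −1.10 in FVB/N, 0.55 in BL6 and 0.14 in SV129 (adjusted p = 0.23), and for Ldha −0.83 in FVB/N, 0.35 in BL6 and 0.01 in SV129 (adjusted p = 0.242). Without hypoxic BL6 array 5, 607 probe sets passed this test, 3 of them of glycolysis genes, and without hypoxic BL6 array 2, 241 passed, 0 of them of glycolysis genes.

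Strain itself separated 2 of the 23 probe sets, both of Pdk1, where 4.23% of all probe sets passed. FVB/N lung was lower than the other strains at either pressure. On 1423748_at the FVB/N arrays ran from 6.33 to 7.44, the BL6 arrays from 9.06 to 9.13 and the SV129 arrays from 8.81 to 9.58. FVB/N was 4.74-fold lower than BL6 (log2 difference −2.24 ± 0.252) and 4.88-fold lower than SV129 (−2.29 ± 0.252), with an adjusted p of 0.00145 for the 3 strains in limma. On 1423747_a_at the difference was −1.78 ± 0.214 from BL6 and −1.94 ± 0.214 from SV129 (adjusted p = 0.00171). BL6 and SV129 differed by −0.04 ± 0.252 and −0.16 ± 0.214 there (BL6 minus SV129), within the error.

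The mean of the macrophage markers was lowest in FVB/N lung too. The mean of the 6 measured of 7 listed was 8.61 and 8.64 on the hypoxic FVB/N arrays and 9.22 on the normoxic one, against 10.01 to 10.65 on every BL6 and SV129 array. Marco, a scavenger receptor of alveolar macrophages, read 4.43 and 4.46 on the hypoxic FVB/N arrays and 6.11 on the normoxic one, against 7.17 to 8.12 in BL6 and 9.75 to 9.84 in SV129 lung. The markers differed in this. Adgre1 read 8.05 to 8.48 in FVB/N lung, against 8.65 to 9.53 in the other strains. Fabp4 overlapped, with 8.54 to 11.15 in FVB/N lung and 9.53 to 11.99 in the other strains. The part of these cells in the strain difference of Pdk1 was not tested.

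Both probe sets still passed on the 7 arrays (adjusted p = 0.014 and 0.0171), where 3.25% of all probe sets did, and in each of the other settings tried. The brightest probe set of Pdk1, 1435836_at, did not pass for strain (FVB/N minus BL6 −0.23 ± 0.291, adjusted p = 0.873). For the other 9 genes 0 probe sets passed for strain in limma, and over all 23 only the 2 of Pdk1 had an unadjusted p under 0.05.

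Among the genes around the members, read through their brightest probe sets, 0 of all 5 lists passed for hypoxia in limma, where 2.75% of all genes did. At an unadjusted p under 0.05 there were 2 of 13, 2 of 9, 1 of 11, 0 of 6 and 2 of 16, in the order in which the lists follow, against 19.9% of all genes. In the first list, of 19 further glycolysis enzymes 13 could be read through probe sets of a single gene. Of the 13, 4 lay above 0 and 9 below, with a median of −0.20, and 0.02 on 7 arrays. Pkm, which encodes pyruvate kinase of muscle and most other tissues, came nearest to the threshold. It read 11.69 to 12.11 on hypoxic arrays (median 11.98) and 11.42 to 11.53 on normoxic arrays, without overlap (change 0.48 ± 0.112, adjusted p = 0.0537, and 0.42 with adjusted p = 0.214 on 7 arrays).

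The other changes above 0 in that list were led by Pfkfb4 (0.23, and 0.02 on 7 arrays) and Eno2, neuronal enolase (0.14, and 0.08). Those below 0 were led by Pgam2, the muscle phosphoglycerate mutase (−0.98 ± 0.421), Eno3, muscle enolase (−0.67 ± 0.342), and Pfkm, muscle phosphofructokinase, and Bpgm at −0.29 each. Pgam2, Eno3 and Pfkm stood at 10.29, 11.14 and 10.75 on the normoxic FVB/N array, against highest values of 8.36, 9.69 and 9.97 elsewhere. Their changes on 7 arrays were −0.27, 0.07 and 0.05, all 3 nearer to 0, while that of Bpgm was −0.24.

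Among 9 genes of sugar and lactate transport, 2 lay above 0 and 7 below (median −0.66, and −0.25 for 8 on 7 arrays). Slc16a3, the lactate exporter MCT4, had 0.35 ± 0.254, Bsg, the chaperone of lactate transporters, 0.13, and Slc2a3, the transporter Glut3, −0.06. Slc2a5, a fructose transporter, had −1.0 ± 0.904, Ldhb −0.74 ± 0.44 and Slc2a4, the insulin-responsive transporter Glut4, −0.71 ± 0.25 (adjusted p = 0.141). Slc2a5 read 8.15 (hypoxic BL6 array 2) and 9.45 (normoxic FVB/N), and 4.59 to 5.93 elsewhere, and Ldhb 12.65 and 13.61 on the same arrays, and 10.95 to 11.98 elsewhere. Slc16a3 had 0.06, Bsg 0.13, Slc2a3 −0.50, Slc2a4 −0.38 and Ldhb −0.12 on the 7 arrays, where Slc2a5 was too dim to be tested. The largest change of the list there was that of the lactate transporter Slc16a1, named after its values were seen. It had −0.80 ± 0.34 on 7 and −0.66 ± 0.255 on 9 arrays, and passed on neither.

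The 11 genes measured for the entry of pyruvate into mitochondria had a median of −0.47, and 0.01 on 7 arrays, with 1 above 0 and 10 below. Pdhx, a structural subunit of pyruvate dehydrogenase, had 0.21 ± 0.23, Pdha1 −0.13 and Pdhb −0.14. Mpc1, a subunit of the mitochondrial pyruvate carrier, had −0.66 ± 0.219 (adjusted p = 0.125), Pdk4 −0.58 ± 0.29 and Pdp2, a phosphatase of the complex, −0.57 ± 0.354. Pdk2 and Pdk3, the kinases related to Pdk1, had −0.51 ± 0.351 and −0.49 ± 0.306, and both were highest on the normoxic FVB/N array. Pdhx had 0.59 ± 0.233 on the 7 arrays (adjusted p = 0.275), Mpc1 −0.41 and Pdp2 −0.31. Pdha1, Pdhb, Pdk2, Pdk3 and Pdk4 lay between 0.01 and 0.09 there. The largest change there was that of Pdp1, named after its values were seen, at −0.60 ± 0.227 (adjusted p = 0.251). It had −0.35 ± 0.216 on 9 arrays, and its dimmer probe set 0.50 on 9 and 0.36 on 7. Dimmer probe sets of Pdha1 and Pdhb had 0.68 (adjusted p = 0.0979) and 0.26 on 7 arrays, and 0.22 and −0.07 on 9. None of these passed.

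The 6 genes of gluconeogenesis, the reverse pathway of liver and kidney, followed the kidney markers for 3 members. Fbp1 read 13.24 (hypoxic BL6 array 2) and 14.42 (normoxic FVB/N), and 6.14 to 8.15 elsewhere. On the same arrays Pck1 read 10.51 and 12.70, and 4.43 to 6.85 elsewhere, and G6pc 11.27 and 12.75, and 4.33 to 5.91 elsewhere. Their changes were −1.42 ± 1.89, −2.14 ± 1.47 and −1.70 ± 1.66, and Pck2, Fbp2 and G6pc3 had 0.20, −0.14 and −0.03. Fbp1 had −0.14, Pck2 0.19, Fbp2 0.01 and G6pc3 0.32 on the 7 arrays, where Pck1 and G6pc were too dim to be tested.

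Read through brightest probe sets on 9 arrays, Fbp2, the muscle fructose bisphosphatase, was the only gene of these 5 lists past the threshold for strain (adjusted p = 0.00861), where 4.23% of all genes passed. Its signal ran from 6.97 to 8.29 in FVB/N lung, from 5.99 to 7.31 in BL6 and from 9.39 to 9.64 in SV129. Of the dimmer probe sets of these lists, 1 of Bpgm (adjusted p = 0.00962) and 1 of Tigar (adjusted p = 0.0276) passed for strain as well, where 4.23% of all probe sets passed. On the 7 arrays Fbp2 (adjusted p = 0.000646), Fbp1 (adjusted p = 0.022) and Slc2a3 (adjusted p = 0.035) passed through their brightest probe sets. In the order of the lists 0 of 13, 1 of 8, 0 of 11, 2 of 4 and 0 of 16 genes passed there, against 436 of 12688 over all genes.

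Of 18 HIF targets outside glycolysis 16 were measured, with 7 above 0, 9 below and a median of −0.08 (0.08 on 7 arrays). The largest changes above 0 were those of Adm, adrenomedullin (0.77 ± 0.572), P4ha1, a prolyl hydroxylase of collagen (0.39 ± 0.215), and Egln1, the HIF prolyl hydroxylase PHD2 (0.29 ± 0.126, adjusted p = 0.221). The largest below 0 were Bhlhe40 (−0.56 ± 0.246, adjusted p = 0.224), Car9, carbonic anhydrase 9 (−0.36 ± 0.283), and Ankrd37 and Ddit4 (−0.29 each). The order differed on the 7 arrays, with Adm at 0.80, Egln1 at 0.35 and P4ha1 at 0.12, against Ddit4 at −0.72, Car9 at −0.58, Ankrd37 at −0.46 and Bhlhe40 at −0.44. None of them passed there either. Vegfa, the vascular endothelial growth factor, had −0.13 ± 0.182 on its brightest probe set. A dimmer one, named after its values were seen, had 0.72 ± 0.17 (adjusted p = 0.0526, and 0.67 with adjusted p = 0.179 on 7 arrays), and the difference between them was not tested.

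**Figure D5:**
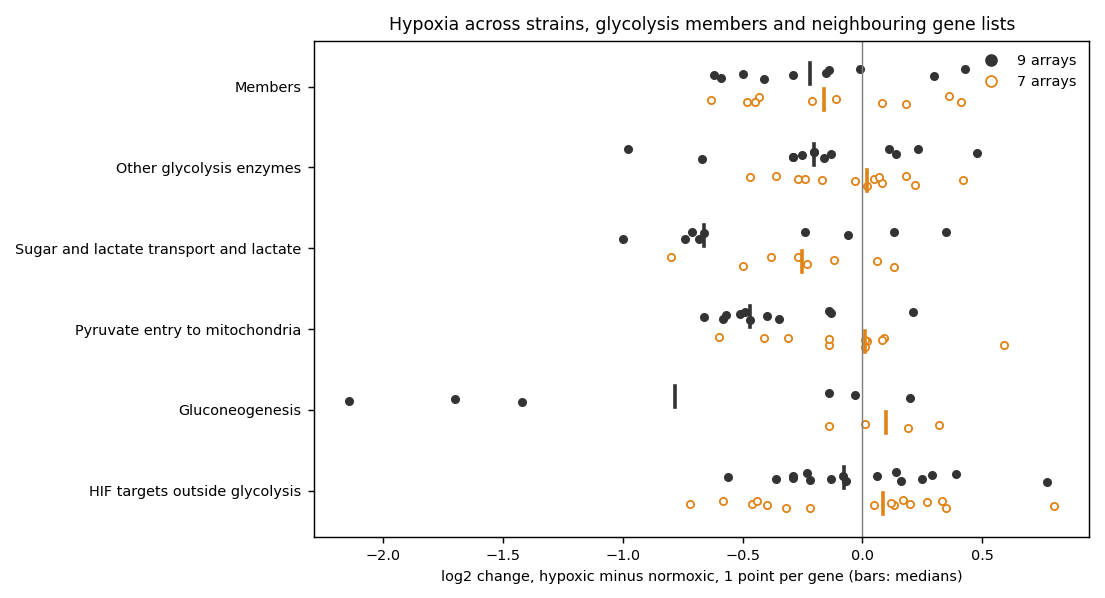
Log2 change, hypoxic minus normoxic, of the 10 glycolysis genes and of the 5 surrounding gene lists, 1 point per gene read through its brightest probe set, with bars for list medians. Filled points are from 9 arrays and open points from 7 arrays without those with kidney transcripts. The median of the pyruvate entry list is −0.47 on 9 and 0.01 on 7 arrays, and the 3 lowest gluconeogenesis points are Pck1, G6pc and Fbp1.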

How the data were processed

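The authors deposited 1 table of linear intensity signals per probe set for 9 arrays of biotin-labelled lung RNA, per the labels. From the values, each array's signals had been scaled to a mean of 500 without the top and bottom 2%. The sources used here do not name the software, and 12 further arrays named in the design text were not analysed here. All 9 columns were matched to samples by accession.

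Controls (64 of 45101 probe sets) were removed, signals were taken as log2(signal + 16), quantile normalized, and the dimmest 40% by mean left out, leaving 27022. Of 45037 probe sets 34945 had 1 symbol, 932 several and 9160 none in the platform annotation (99.42% of the single-symbol ones matched RefSeq by gene ID, 0 symbols changed). The tests used limma 3.58.1 (eBayes with trend; R 4.3.3). Hypoxia and strain came from strain + condition (5 residual degrees of freedom) and the interaction from 6 groups (3), whose spread comes from hypoxic pairs alone. Fold changes understate dim genes. No normoxic group has a spread of its own.

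Named were all probe sets of the 10 members and, of 5 lists, genes past a threshold and the 3 largest changes each way. Members and lists were chosen with earlier results of these data known. Alternatives varied normalization, pseudocount, filter, eBayes trend, array weights, a kidney covariate, the array number as a block and each array left out.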

Additional observations from a re-analysis of the deposited data

Results flagged for a closer look

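On each of the 23 tested glycolysis probe sets the 6 hypoxic arrays were searched for an array far from the other 5 (Dixon's test, critical value 0.625). The nominal rate of the test is about 1 group in 20 for arrays of a single kind. It does not strictly hold here, since the 6 arrays come from 3 strains, and the share marked over all probe sets was not computed. Of the 23, 3 were marked, each for hypoxic BL6 array 2, which carried kidney transcripts and had the lowest heart marker mean (8.75). On it Hk2 was low at 8.33, where the next array had 9.17. Pgk1, read through its brightest probe set, was high at 12.64, where the next had 12.03, and Tpi1 (1435659_a_at) was high at 11.46, where the next had 10.69. Without that array the changes did not pass for any of the 3 (adjusted p = 0.23, 0.538 and 0.148 in limma). The test that strains differ in their response marked 0 glycolysis probe sets.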

How the results depend on the processing

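Both Pdk1 strain differences passed in all 20 settings (11 alternatives and 9 with 1 array left out). Against 1016 probe sets called for hypoxia there were 582 with no filter, 657 without the eBayes trend, 1871 with array weights, 228 without both arrays with kidney transcripts, 1960 with the kidney covariate and 3 to 1390 with 1 array left out (3 when normoxic SV129 and 11 when normoxic BL6 was the one left out). The array number as a random replicate block gave 5586, and 9 glycolysis probe sets where the main model gave 2; array numbers did not pair the arrays (correlations of deviations −0.04, −0.03 and −0.19), and the block's estimated correlation was −0.24. Glycolysis calls numbered 0 without both arrays, 4 with the kidney covariate and 0 to 2 with 1 array left out. Median centring, which moved the median of all probe sets to 0.11, called 1027 of 1440 higher, against 525 of 1016, and Pfkp passed (0.54, adjusted p = 0.0424). The interaction, 0 in the main model, gave 7 with a pseudocount of 64 and 0 to 607 with 1 array left out, of which 0 to 3 were glycolysis probe sets. Strain differences, 1144, numbered 2687 with array weights, 1718 with the kidney covariate and 539 to 1585 with 1 array left out.

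Changes that turned direction were all under the threshold. Slc2a1 1426600_at had 0.06 with median centring, 0.17 with array weights, 0.05 with the kidney covariate and −0.20 to 0.09 with 1 array left out. Hk1 1437974_a_at had 0.09 with median centring, 0.04 with array weights, 0.03 with the replicate block, 0.38 as the mean of both probe sets and −0.13 to 0.13 with 1 array left out. Pgk1 had 0.16 with array weights, 0.18 without both arrays, 0.09 with the kidney covariate and −0.48 to 0.35 with 1 array left out, and Ldha 0.09, 0.08 (weights, without both) and −0.42 to 0.18. With 1 array left out Pfkfb3 ran from −0.70 to 0.03, its 1456676_a_at from −0.32 to 0.12 and Tpi1 1452927_x_at from −1.05 to 0.13. The cause was not tested. Signal over background could not be judged, since detection calls were not used here, and 2 of 25 glycolysis probe sets were too dim to test.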
